A study of Oryza sativa Japonica Group with 6 samples.

Results

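WRKY transcription factors were examined in wild-type rice seedlings and in a mutant of the OsINO80 gene. The members are 39 WRKY loci given by a fixed list of locus numbers, out of 55801 loci in the tables, and all 39 were present there. RNA-seq was made from seedlings of the rice cultivar Nipponbare (Oryza sativa), 14 days old, grown in chambers under an SD photoperiod with no treatment. The wild type (WT) and the mutant osino80, labelled osino80-2, were each represented by 3 libraries; what sort of lesion the allele carries is not described in those labels. The labels leave it unsaid whether a genotype's libraries stem from different plants; every p-value therefore refers to the variation among these 6 libraries, part or all of which may be technical. Member names were assigned from published locus numbers, because the files pair no names with the loci; the reference table of rice genes placed 5 member names on the expected chromosome, placed WRKY8 on another one, and did not list the other 33.

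WRKY proteins are plant transcription factors named after the amino acids tryptophan, arginine, lysine and tyrosine that open their conserved DNA-binding domain. They bind W-box elements in promoters, many of which belong to defence genes and to WRKY genes themselves, so that family members activate or repress one another. In rice they are best known from resistance to blast fungus and bacterial blight, downstream of mitogen-activated protein kinases and of salicylate, and from gibberellin and abscisic acid responses in the aleurone layer of the grain. INO80 is the ATPase of a complex that remodels nucleosomes.

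Libraries held 61426662 to 73293481 counts, and TMM scaling factors lay between 0.996 and 1.004. OsINO80 itself, taken as LOC_Os03g22900, had 8671, 8074 and 7404 counts in WT against 3731, 3792 and 4034 in osino80, so the mutant libraries kept 0.511 of the WT level (log2 fold change -0.97 ± 0.03, edgeR adjusted p = 2.56e-115). In whole seedlings, fewer cells of a type and less RNA per cell cannot be told apart. The leaf markers RBCS2, RBCS3 and RBCS4 (Rubisco small subunits) had log2 fold changes of -0.09 ± 0.01, -0.09 ± 0.01 and -0.05 ± 0.01 (SE), and the root marker Lsi1 (a silicon transporter) had 0.35 ± 0.07. Each passed an edgeR adjusted p of 0.05 without overlap between genotypes, the leaf markers as lower and Lsi1 as higher in osino80. No other root marker was used. The part of tissue make-up in the WRKY results was not tested.

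More of the 39 listed WRKY members were higher than lower in osino80. Of the 39 members 35 had enough counts to be tested, 12 rose, 5 fell and 18 did not pass an edgeR adjusted p of 0.05, which is adjusted over all 24914 genes tested. The 17 that passed are 48.6% of the tested members, beside 37.6% of all tested genes. Higher calls took 34.3% of the members against 18.4% of all genes, and lower calls 14.3% against 19.1%. These shares describe the listed members only, which were chosen with earlier results of these data known. They do not extend to WRKY genes at large. Among 37 other tested WRKY loci 7 were higher (18.9%) and 6 lower (16.2%), close to the shares of all genes. Changes of at least 1.5-fold past the threshold were found in 9 members, 25.7% of those tested against 7.32% of all genes. WRKY21, WRKY28, WRKY24, WRKY67, WRKY74 and WRKY71 were the 6 that rose this much, beside 4.26% of all genes, and WRKY104, WRKY77 and WRKY62 the 3 that fell, beside 3.06%. A change of at least 2-fold was found in 2 members, WRKY21 and WRKY104, which is 5.71% beside 3.76% of all genes. The count of members that fell was 3 without WT replicate 2 in place of 5, and it lay between 3 and 5 over the 6 fits that leave out a library.

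**Figure D1:**
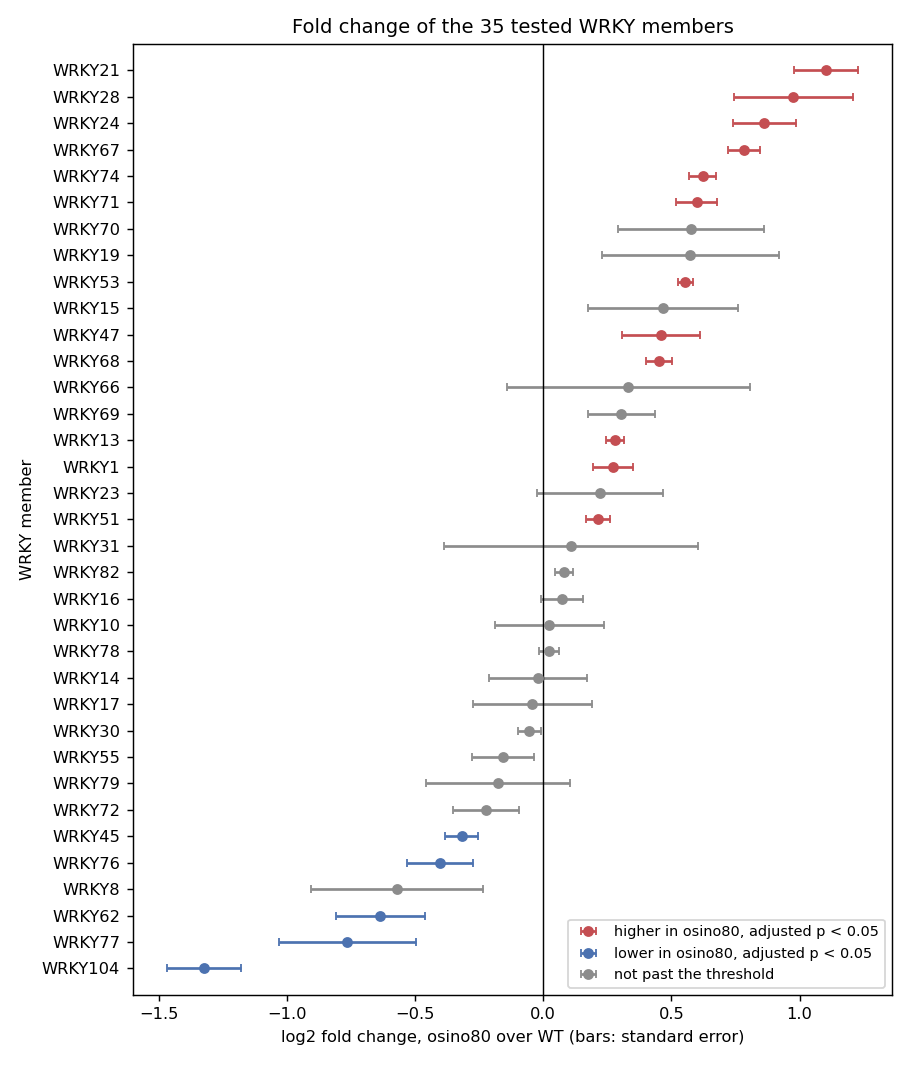
Log2 fold change (osino80 over WT, horizontal axis) of the 35 tested WRKY members, with standard errors as bars; red members rose, blue members fell and grey members did not pass the test. WRKY21 stands highest at 1.10 and WRKY104 lowest at -1.32.

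The median log2 fold change of the 35 tested members was 0.21, and over all tested genes it was 0.00. It was 0.11 without osino80 replicate 2 and at most 0.24 in the fits that leave out 1 library. With no low-count filter, where all 39 members enter, it was 0.0794, and on log2(TPM + 1) with no filter on low values it was 0.0860. The median absolute log2 fold change was 0.33 for the members and 0.16 for all genes. The members were less abundant than the average tested gene, with a median log2 CPM (counts scaled to library size) of 2.19 against 3.41; the part of abundance in the size of their fold changes was not tested. The libraries of both genotypes did not overlap in 20 of 35 members (57.1%), beside 45.7% of all tested genes. These 20 comprise the 17 members that passed and WRKY82, WRKY8 and WRKY15, which did not.

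**Figure D2:**
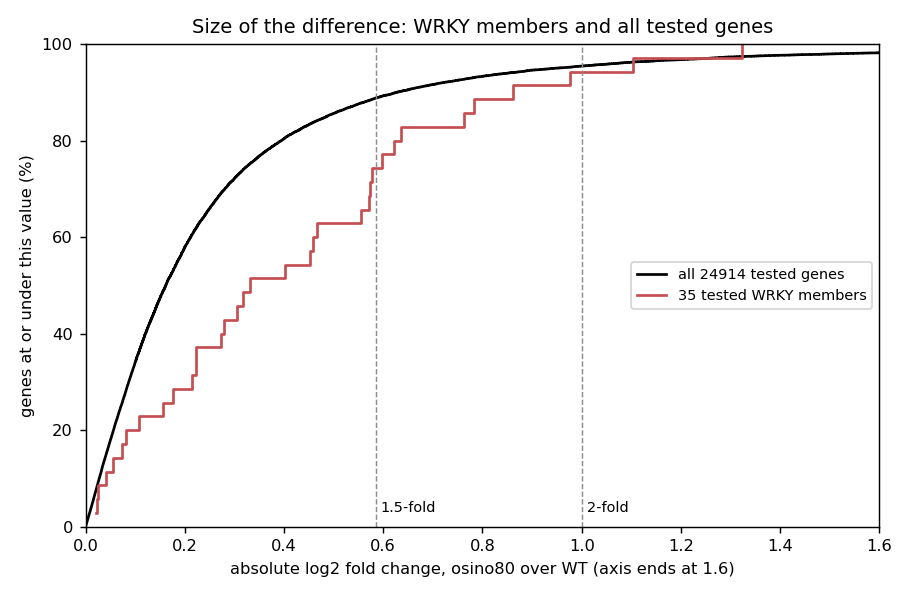
Cumulative share of genes (vertical axis, %) at or under a given absolute log2 fold change (horizontal axis), for the 35 tested WRKY members (red) and all 24914 tested genes (black); dashed lines mark 1.5-fold and 2-fold. The red line lies below the black one over most of the axis, with a median of 0.33 against 0.16, and meets it beyond 2-fold.

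Levels of different members are compared in TPM, which is scaled to transcript length. In WT 11 members had a mean of at least 10 TPM, 18 had from 1 to under 10 TPM and 10 had less than 1 TPM. The 8 most abundant members held 70.5% of the summed WRKY TPM. WRKY53 was the most abundant in both genotypes, with 57.2 ± 0.785 TPM in WT and 85.3 ± 1.34 TPM in osino80 (SD, n = 3). WRKY13 came next, with 47.7 ± 1.64 TPM in WT and 58.2 ± 0.746 TPM in osino80. Next in WT stood WRKY82 at 37.5 ± 1.56 TPM and WRKY78 at 34.6 ± 1.13 TPM, whose WT libraries overlapped. WRKY68 (28.4 ± 0.328 TPM) ranged above WRKY51 (27.1 ± 0.671 TPM) in every WT library, while WRKY51 and WRKY67 (26.0 ± 1.09 TPM) overlapped. In osino80 WRKY67 stood at rank 3, with 43.3 ± 2.83 TPM, after rank 7 in WT. Summed over the 39 members the level was 397, 396 and 402 TPM in the WT libraries and 481, 481 and 481 TPM in the osino80 libraries. All osino80 sums lay above all WT sums, at 1.21 times the WT mean. This sum is carried by abundant members and is no measure of a rise across the family. The members that passed as higher summed to 226, 224 and 227 TPM in WT and 320, 317 and 318 TPM in osino80. Those that passed as lower summed to 40.8, 40.9 and 44.5 TPM in WT and 28.2, 29.4 and 29.4 TPM in osino80. Of the 11 members of at least 10 TPM in WT 8 passed the test (72.7%), beside 49.9% of all tested genes at such a level. From 1 to under 10 TPM 8 of 18 passed (44.4%), beside 28.8% of all tested genes there. Under 1 TPM 1 of the 6 tested members passed, WRKY28 (16.7%), beside 18.2% of all tested genes.

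**Figure D3:**
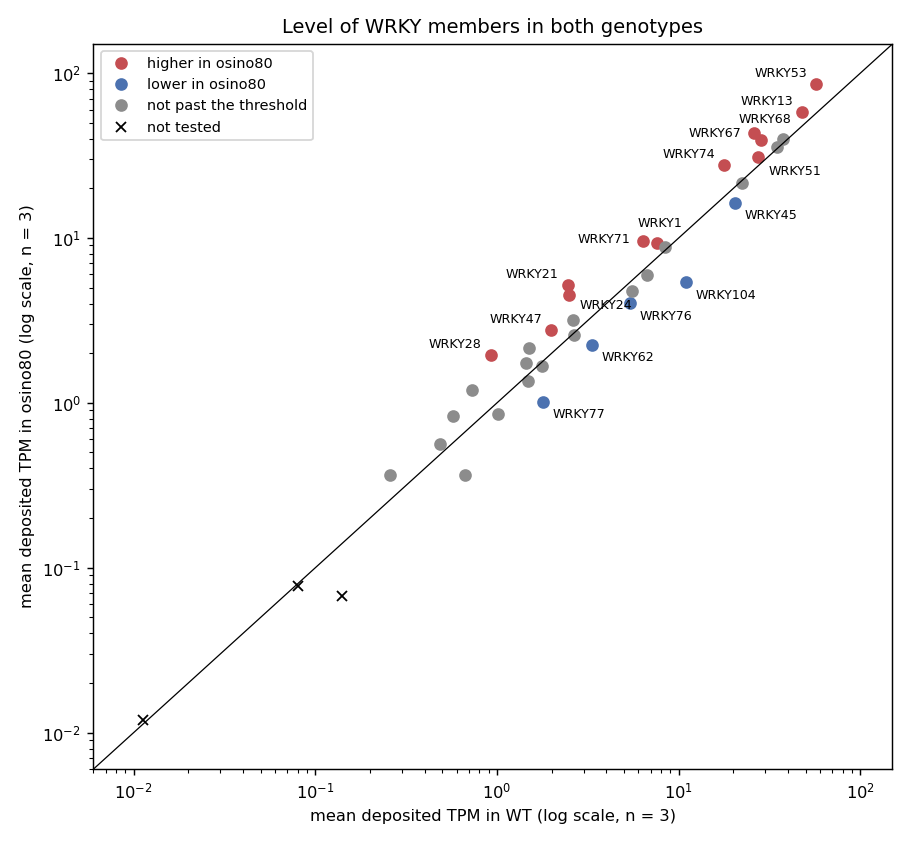
Mean deposited TPM of WRKY members in WT (horizontal) and osino80 (vertical), both on log scales, n = 3 each; the line marks equal levels, and WRKY22, listed at 0 in all libraries, is not drawn. WRKY53 stands at the top in both genotypes, WRKY21 and WRKY28 lie above the line and WRKY104 below it.

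WRKY45 and its target WRKY62 fell in osino80, while the group IIa genes split into 2 that fell and 2 that rose. The calls of those that fell, WRKY62 and WRKY76, were lost without WT replicate 1 and WT replicate 2, respectively. WRKY45 is required for blast resistance induced through salicylate signalling, and WRKY62 is one of its targets. WRKY62, WRKY76, WRKY71 and WRKY28 form group IIa, relatives of the Arabidopsis defence regulators WRKY18, WRKY40 and WRKY60; WRKY62, WRKY76 and WRKY28 are known as repressors of basal defence. WRKY45 (LOC_Os05g25770) had 18.8, 20.9 and 22.5 CPM in WT and 15.5, 17.2 and 17.1 CPM in osino80. All mutant libraries lay below all WT libraries, a 1.25-fold fall (log2 fold change -0.32 ± 0.06 SE, edgeR adjusted p = 8.09e-06).

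WRKY62 and WRKY76, which stand next to each other on chromosome 9 with 0 genes between them in the reference table, both fell. WRKY62 (LOC_Os09g25070) had 3.52, 2.29 and 2.93 CPM in WT and 1.67, 1.76 and 2.19 CPM in osino80. Its groups were close, with the lowest WT library just above the highest mutant one, and the log2 fold change was -0.64 ± 0.17 (edgeR adjusted p = 0.00124). Without WT replicate 1, its highest library, the adjusted p was 0.0553 (0.000235 to 0.124 across all alternatives); the call was also lost on log2(TPM + 1) with no filter on low values. WRKY76 (LOC_Os09g25060) had 4.79, 6.27 and 4.94 CPM in WT and 4.02, 4.20 and 3.89 CPM in osino80, with WT replicate 2 apart from the others. Its log2 fold change was -0.40 ± 0.13 (edgeR adjusted p = 0.00615), and -0.27 without WT replicate 2, where the call was lost (adjusted p = 0.149, across alternatives 0.00346 to 0.149).

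WRKY71 and WRKY28 rose. WRKY71 (LOC_Os02g08440), which represses gibberellin-induced genes in aleurone cells, had 8.87, 8.92 and 9.25 CPM in WT and 12.8, 13.6 and 14.5 CPM in osino80. The WT libraries were almost equal and all mutant libraries were higher, a 1.51-fold rise (log2 fold change 0.60 ± 0.08, edgeR adjusted p = 1.78e-11). WRKY28 (LOC_Os06g44010) was the least abundant of the 4, with 68, 76 and 47 counts in WT against 132, 123 and 94 in osino80. These correspond to 0.931 ± 0.163 and 1.84 ± 0.372 CPM (SD, n = 3), a 1.97-fold rise with no overlap (log2 fold change 0.98 ± 0.23, edgeR adjusted p = 0.000186). Whether the 4 group IIa genes differ from one another in response was not tested.

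Among the members placed here in group I, whose proteins carry a DNA-binding domain at each end, WRKY53 and WRKY24 rose and the other 3 did not pass. This grouping, like that of group IIa, was not checked against protein sequences. WRKY53 (LOC_Os05g27730) is induced by fungal elicitors, is phosphorylated by mitogen-activated protein kinases and also acts in brassinosteroid signalling. It had 81.9, 80.5 and 82.0 CPM in WT and 123, 119 and 118 CPM in osino80. Spread within each genotype was small beside the gap between them, and WRKY53 had the smallest p of all members: a 1.47-fold rise, log2 fold change 0.55 ± 0.03 (edgeR adjusted p = 8.81e-60). WRKY24 (LOC_Os01g61080), a repressor of gibberellin and abscisic acid responses in aleurone cells, had 3.48, 3.47 and 3.91 CPM in WT and 6.83, 6.46 and 6.41 CPM in osino80. Its 1.82-fold rise left no overlap (log2 fold change 0.86 ± 0.12, edgeR adjusted p = 1.38e-10).

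WRKY70 (LOC_Os05g39720), a close relative of WRKY53 known from herbivore defence, had 0.862, 0.532 and 0.915 CPM in WT and 0.803, 1.37 and 1.27 CPM in osino80. The groups overlapped, and its log2 fold change of 0.58 ± 0.28 did not pass (edgeR adjusted p = 0.0985); it passed without osino80 replicate 1 (adjusted p = 0.0360, across alternatives 0.0360 to 0.386). WRKY30, whose overexpression raises blast resistance, had a log2 fold change of -0.05 ± 0.04, and WRKY78, involved in stem elongation, had 0.02 ± 0.04. With 37.6 ± 0.833 and 48.6 ± 2.05 CPM in WT both are abundant, and their standard errors are among the smallest of the members that did not pass.

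Of the other members studied in aleurone hormone signalling, WRKY51 rose, WRKY77 fell and WRKY72 did not pass. WRKY51 (LOC_Os04g21950) acts with WRKY71 at an amylase promoter. It had 32.9, 30.7 and 30.6 CPM in WT and 37.9, 36.3 and 35.2 CPM in osino80, a rise of 1.16-fold, the smallest of the 12 (log2 fold change 0.21 ± 0.05, edgeR adjusted p = 3.44e-05). WRKY77 and WRKY72 activate an abscisic acid-inducible promoter in such cells. WRKY77 (LOC_Os01g40260) had 84, 101 and 89 counts in WT against 44, 67 and 40 in osino80.

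In CPM WRKY77 fell from 1.35 ± 0.176 to 0.796 ± 0.250 (SD, n = 3), with osino80 replicate 2 close to the WT range (log2 fold change -0.76 ± 0.27, edgeR adjusted p = 0.0150). The WRKY77 call was the least stable of the 17: the adjusted p was 0.0607 when WT replicate 2 was left out, 0.0548 without WT replicate 3, 0.0560 without osino80 replicate 1 and 0.102 without osino80 replicate 3 (0.00398 to 0.102 across all alternatives). WRKY72 (LOC_Os11g29870) had 4.64, 4.82 and 5.31 CPM in WT and 4.21, 4.64 and 3.80 CPM in osino80. The groups touched, and the log2 fold change of -0.22 ± 0.13 did not pass (edgeR adjusted p = 0.168, across alternatives 0.0968 to 0.441).

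Several further members rose with no overlap between genotypes. WRKY13 (LOC_Os01g54600), an activator of blast and bacterial blight resistance, had 52.2, 50.4 and 51.6 CPM in WT and 62.3, 61.7 and 63.0 CPM in osino80. The rise was 1.21-fold, small in size and well outside the spread of either genotype (log2 fold change 0.28 ± 0.04, edgeR adjusted p = 9.16e-13). WRKY67 (LOC_Os05g09020), which also promotes resistance to both diseases, had 13.4, 14.4 and 14.0 CPM in WT and 22.7, 24.0 and 25.2 CPM in osino80. This 1.72-fold rise (log2 fold change 0.78 ± 0.06, edgeR adjusted p = 4.65e-28) was the largest among members above 10 TPM in WT.

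WRKY74 (LOC_Os09g16510), known from tolerance of phosphate starvation, had 20.1, 21.7 and 22.1 CPM in WT and 34.0, 32.9 and 31.3 CPM in osino80, a 1.54-fold rise (log2 fold change 0.62 ± 0.05, edgeR adjusted p = 2.12e-26). WRKY68 (LOC_Os04g51560) had 22.6, 23.1 and 22.5 CPM in WT and 31.3, 31.1 and 30.9 CPM in osino80, a 1.37-fold rise (log2 fold change 0.45 ± 0.05, edgeR adjusted p = 2.45e-15). Both were tight within each genotype, WRKY68 to within 0.312 CPM (SD) in WT. WRKY21 (LOC_Os01g60640) rose most: it had 243, 208 and 205 counts in WT against 463, 401 and 456 in osino80. In CPM these are 3.22 ± 0.20 and 6.92 ± 0.490 (SD, n = 3), a 2.15-fold rise and the largest of the 12 (log2 fold change 1.10 ± 0.12, edgeR adjusted p = 4.47e-16).

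The other 2 risers were WRKY1 (LOC_Os01g14440) and WRKY47, the latter a gene that promotes drought tolerance. WRKY1 had 11.1, 11.2 and 10.5 CPM in WT and 12.8, 13.8 and 13.2 CPM in osino80, a 1.21-fold rise with no overlap (log2 fold change 0.27 ± 0.08, edgeR adjusted p = 0.00238). WRKY47 (LOC_Os07g48260) had 2.79, 2.07 and 3.19 CPM in WT and 4.06, 3.59 and 3.39 CPM in osino80, and its groups were separated by little at 1.37-fold. Its call (edgeR adjusted p = 0.00913) was lost without WT replicate 2 (adjusted p = 0.157) or osino80 replicate 1 (0.0735), with values of 0.00313 to 0.157 across all alternatives.

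WRKY104 (LOC_Os11g02520) fell most. It had 410, 345 and 337 counts in WT against 159, 117 and 132 in osino80, or 5.36 ± 0.347 and 2.14 ± 0.360 CPM (SD, n = 3). Every mutant library had about the same low level, and the fall was 2.50-fold (log2 fold change -1.32 ± 0.14, edgeR adjusted p = 3.50e-17). In the deposited TPM the difference was smaller, from 11.0 ± 0.939 to 5.38 ± 0.648 TPM, a log2 ratio of -1.03. The gap of -0.29 between the log2 changes of both tables was the largest among the members that passed. WRKY8 (LOC_Os05g50610), which did not pass, had a gap of 0.285. WRKY104 lies near the end of chromosome 11, in a segment duplicated on chromosome 12, so its counts are uncertain where reads match both copies; how reads were assigned was not tested.

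**Figure D4:**
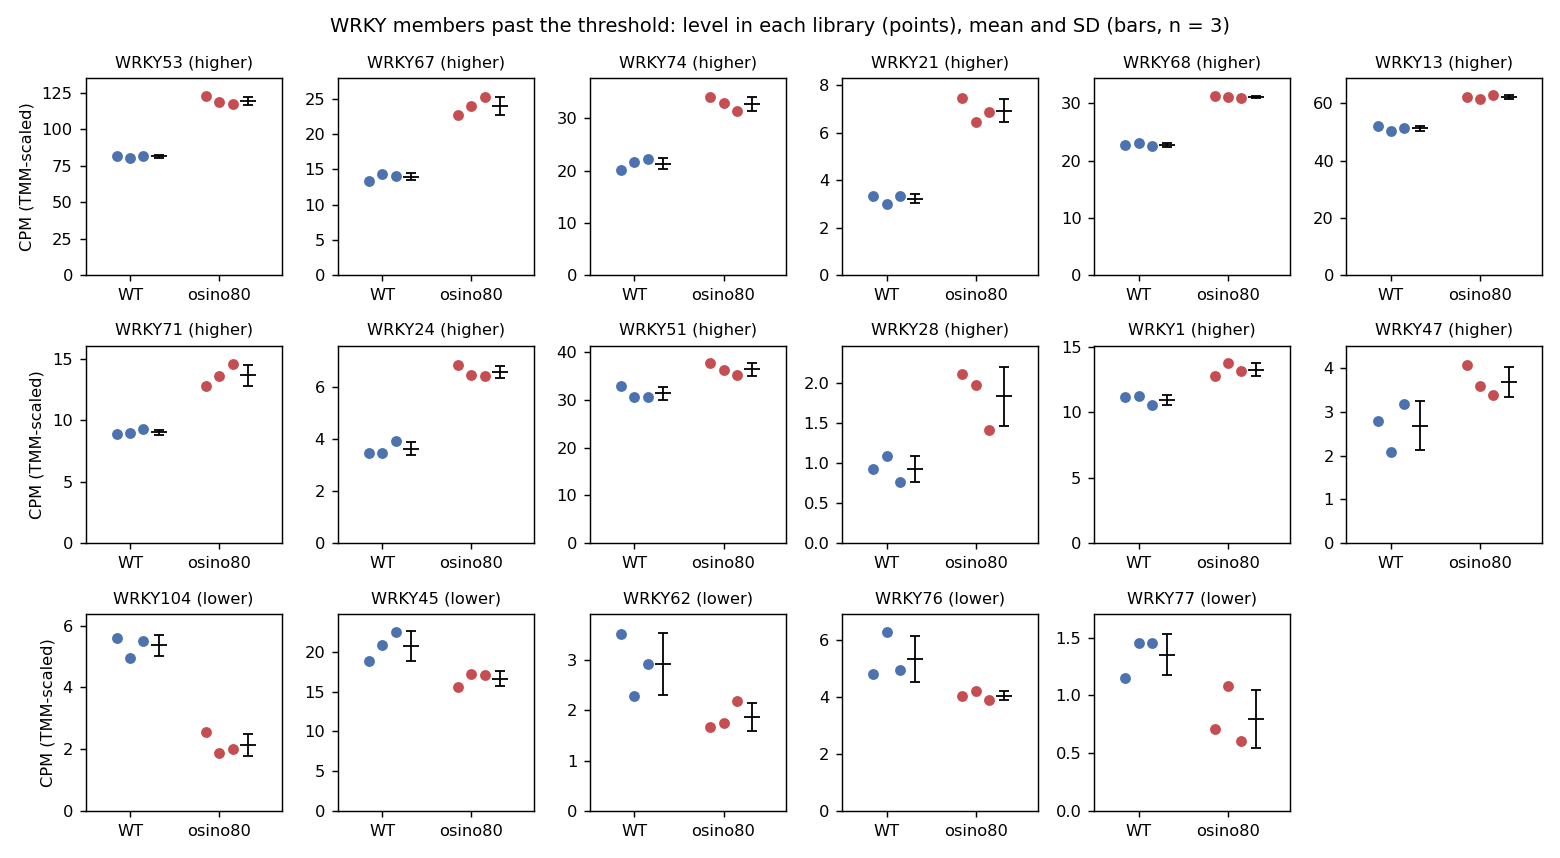
TMM-scaled CPM in each library (points; WT blue, osino80 red) of the 17 WRKY members that passed the test, with mean and SD as black bars (n = 3) and each vertical axis starting at 0. The 12 that rose fill the upper 2 rows and the 5 that fell the lowest; in all 17 the genotypes do not overlap, and WRKY62, WRKY47 and WRKY77 have the narrowest gaps beside their spread.

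Of the 18 tested members that did not pass, log2 fold changes ran from -0.57 for WRKY8 to 0.58 for WRKY70. WRKY69 at 0.30 ± 0.13 and WRKY82 at 0.08 ± 0.04 came nearest the threshold, with edgeR adjusted p of 0.0542 and 0.0574. WRKY69 passed without WT replicate 3 (adjusted p = 0.0241), without osino80 replicate 1 (0.0293) and with halved counts (0.0241 to 0.278 across all alternatives). WRKY82 passed without WT replicate 1 (0.0387), without osino80 replicate 2 (0.0494) and with upper-quartile scaling (0.0387 to 0.262 across all alternatives). WRKY19 passed without osino80 replicate 3 (0.0343, range 0.0343 to 0.604) and WRKY55 without WT replicate 1 (0.0438, range 0.0438 to 0.972). WRKY15 had 0.821, 0.676 and 0.752 CPM in WT and 0.964, 1.05 and 1.10 CPM in osino80, without overlap, and passed in each of the 3 fits on TPM (adjusted p from 0.0297 to 0.0349, across alternatives 0.0297 to 0.381). WRKY10, WRKY14, WRKY16 and WRKY17 had log2 fold changes of 0.02 ± 0.21, -0.02 ± 0.19, 0.07 ± 0.08 and -0.04 ± 0.23. WRKY23 had 0.22 ± 0.25, WRKY31 0.11 ± 0.50, WRKY66 0.33 ± 0.47 and WRKY79 -0.18 ± 0.28, each within its standard error, at WT means of 1.13, 0.285, 0.307 and 1.02 CPM.

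The 4 members with too few counts were WRKY22, WRKY26, WRKY32 and WRKY42, the last of which is known to repress jasmonate signalling. WRKY22 had 0, 0 and 6 counts in WT against 0, 0 and 0 in osino80, and WRKY32 had 0, 4 and 0 against 0, 0 and 4. WRKY26 had 4, 12 and 6 counts in WT against 6, 4 and 0 in osino80, and WRKY42 had 6, 2 and 6 against 6, 4 and 0. These transcripts were at or near the detection limit in both genotypes, and no fold change is given.

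Other WRKY loci, 42 in a list written from published locus numbers, moved in both directions: of 37 tested, 7 rose, 6 fell and 24 did not pass, with a median log2 fold change of -0.01. The 13 that passed are 35.1% of those tested, near the 37.6% of all tested genes. The reference table placed the name WRKY9 on another chromosome and did not list the other 41 names of this list. WRKY50 (LOC_Os11g02540) had 407, 435 and 335 counts in WT against 175, 149 and 131 in osino80; the fitted log2 change was -1.27 ± 0.14 (edgeR adjusted p = 4.39e-17). WRKY75 changed by -0.45 ± 0.07 and WRKY25 by 0.54 ± 0.10. WRKY64 (LOC_Os12g02450) had 50, 53 and 51 counts in WT against 16, 0 and 14 in osino80; the fitted log2 change was -2.26 ± 0.47 (edgeR adjusted p = 1.60e-05). The WRKY64 call was lost with DESeq2 (adjusted p = 0.101, across alternatives 3.11e-06 to 0.101). WRKY43 (LOC_Os05g49210), the highest point of this list, was picked once its values had been seen; it had 6, 0 and 0 counts in WT against 10, 16 and 20 in osino80, so its log2 fold change of 2.97 ± 0.81 (edgeR adjusted p = 0.00125) rests on few reads; the call was lost on log2(TPM + 1) with no filter on low values (adjusted p = 0.0606). WRKY50 and WRKY64 also lie in the duplicated ends of chromosomes 11 and 12.

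The lists of pattern perception, mitogen-activated protein kinase and salicylate genes had median log2 fold changes between 0.03 and 0.10. Their counts are to be read beside the 37.6% of all tested genes that passed. Whether these genes act upstream of the WRKY members was not tested. In the list of pattern perception, 1 of 8 tested genes passed (12.5%): RbohB, an NADPH oxidase that makes reactive oxygen in defence, rose from 145 ± 2.25 to 177 ± 3.81 CPM (SD, n = 3; log2 fold change 0.29 ± 0.02, edgeR adjusted p = 1.12e-28). RAC1 at -0.21 ± 0.09, FLS2 at 0.49 ± 0.23 and LYP6 at -0.19 ± 0.09 did not pass. RAC1, a small GTPase, passed without WT replicate 3 (adjusted p = 0.0449) or osino80 replicate 2 (0.0254), and LYP6, a peptidoglycan and chitin receptor, without WT replicate 3 (0.0319). Their ranges over the alternatives were 0.0254 to 0.508 and 0.0319 to 0.404.

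In the mitogen-activated protein kinase list 2 of 9 rose and 1 fell, in all 33.3%, near the 37.6% of all tested genes. The kinase gene MPK3 changed by 0.32 ± 0.08 (edgeR adjusted p = 0.000420), MKK10-2 by 0.17 ± 0.05 and MKK3 by -0.17 ± 0.05 on the log2 scale. MPK6 had -0.06 ± 0.03 and did not pass. The MKK3 call was lost without WT replicate 3 (adjusted p = 0.130) and on TPM (0.000489 to 0.166 across all alternatives). The reference table places the names MPK4, MPK6 and MPK7 on other chromosomes and lists MPK3 on 2 chromosomes; the numbering of rice kinases differs between sources. The MPK3 call was lost on log2(TPM + 1) with no filter on low values (adjusted p = 0.0743, across alternatives 0.000163 to 0.0743).

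In the salicylate list 1 of 6 rose and 1 fell, in all 33.3%, also near the 37.6% of all tested genes. NPR3 changed by 0.20 ± 0.04 (edgeR adjusted p = 1.16e-05) and NPR2 by -0.13 ± 0.03 (adjusted p = 4.75e-05), both relatives of the salicylate receptor gene NPR1. ICS1, of salicylate synthesis, had 0.06 ± 0.02 (adjusted p = 0.0526) and passed without WT replicate 1 (0.0112) and in 5 other alternatives (0.0112 to 0.323 across all alternatives). PAD4, a lipase-like regulator of immunity, did not pass at 0.13 ± 0.06, nor did NH1, the rice NPR1 gene, at 0.17 ± 0.08; NH1 passed without WT replicate 2 (adjusted p = 0.0325, across alternatives 0.0325 to 0.392).

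Of 11 genes of defence output 9 were lower (81.8%, beside 19.1% of all tested genes), 1 was higher (9.09%, beside 18.4%) and 1 did not pass. That their diterpenoid phytoalexin genes are lower in these libraries was known when the list was written. The share of lower genes and the median log2 fold change of -1.28 follow in part from that choice. They are no independent result about defence output. The pathogenesis-related genes PR1a and PBZ1 were lower by unlike sizes, with log2 fold changes of -1.53 ± 0.33 and -0.14 ± 0.04. The terpene synthase genes CPS2, CPS4 and KSL7 and the cytochrome P450 gene CYP76M7 had -2.01 ± 0.13, -1.28 ± 0.10, -1.31 ± 0.14 and -1.13 ± 0.16, and the reference table places the last name on another chromosome. Chosen after their values were seen, DPF (LOC_Os01g09990) and NOMT (LOC_Os12g13800) went opposite ways. DPF, a bHLH factor that activates diterpenoid phytoalexin genes and is a target of WRKY45, had 59, 45 and 46 counts in WT against 20, 14 and 7 in osino80, and its fitted log2 change was -1.76 ± 0.44 (edgeR adjusted p = 0.000402). NOMT, which makes the flavonoid phytoalexin sakuranetin, had 74, 76 and 33 counts in WT against 184, 136 and 139 in osino80, and its fitted log2 change was 1.44 ± 0.22 (edgeR adjusted p = 1.30e-09). PR1b, a pathogenesis-related gene chosen likewise, had -0.02 ± 0.07 and did not pass.

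**Figure D5:**
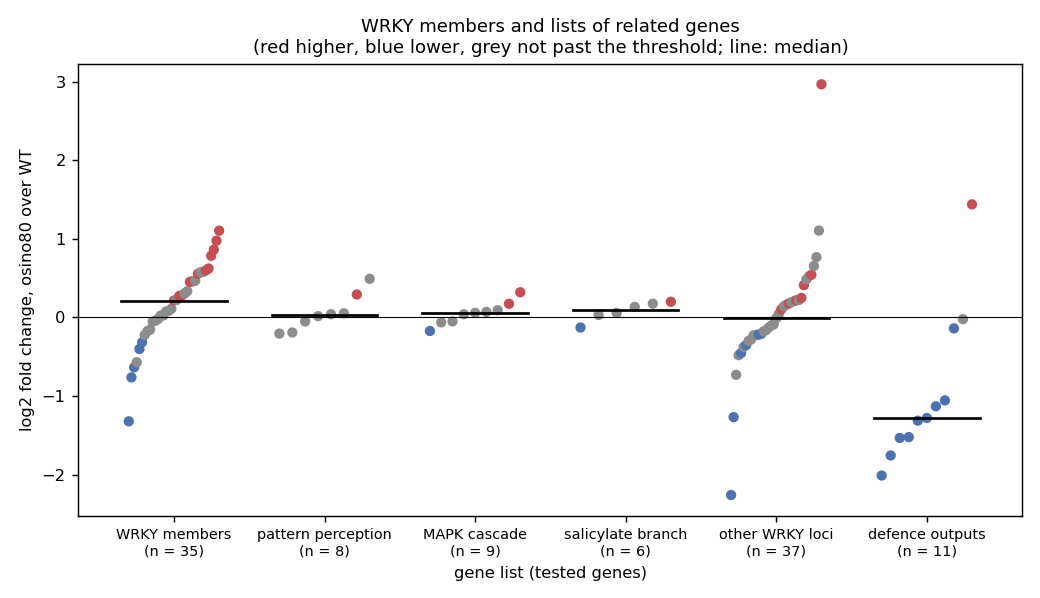
Log2 fold change (osino80 over WT, vertical axis) of each tested gene in the WRKY members and 5 lists of related genes, sorted within a list; red genes rose, blue genes fell, grey genes did not pass, and lines are medians. Medians lie at 0.21 for the WRKY members and -0.01 for other WRKY loci, and at -1.28 for defence outputs. The diterpenoid phytoalexin genes among the defence outputs were known to be lower when that list was written.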

How the data were processed

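Per the labels' protocols, mRNA libraries came from a KAPA stranded kit. Per the submitters' processing notes, cutadapt, HISAT2, SAMtools and featureCounts were used; for versions, build, annotation, strand setting and the way TPM arose, nothing is stated: not given in the sources used here. Both tables are the authors' own. The authors deposited whole-number counts and TPM. Between 82.4% and 83.7% of the counts from 1 to 20 were even in each library, as double counting of read pairs would give. Depth was 61426662 to 73293481 counts.

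The main test was edgeR 4.0.16 under R 4.3.3 (filterByExpr, TMM, estimateDisp, glmQLFit with robust=TRUE, glmQLFTest, two-sided) over all 6 libraries, with Benjamini-Hochberg adjustment over 24914 genes and a threshold of 0.05. CPM, counts scaled to library size, use TMM factors; ± is SD (n = 3), or for log2 fold changes the standard error, the log2 fold change divided by the square root of F. Alternatives used DESeq2 1.42.0 and limma 3.58.1. Fits on TPM kept loci with a mean of at least 1 TPM, except the fit with no filter on low values. That fit kept the 34450 loci with any TPM in the 6 libraries. The test was first tested on simulated data. It recovered 40.9% of 66 changes of 1.2-fold, 67.7% of 65 of 1.5-fold and 89.4% of 66 of 2-fold. Of its 135 calls 5 were false. Small changes can thus be missed, and a member that did not pass is not shown to be unchanged. The simulation held far fewer changed genes than passed here, so these shares need not hold for these data.

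Members and lists were chosen with earlier results of these data known. The rule named WRKY45, WRKY53, WRKY62, WRKY76, WRKY71, WRKY13 and WRKY72 in full. It added up to 10 members that rose and 10 that fell, and up to 4 genes of each list, with the smallest p. Library values of WRKY1, WRKY47, WRKY70 and WRKY15 were given outside this rule. So were NH1, PR1a, PBZ1, DPF, NOMT, PR1b, WRKY43 and the neighbouring loci. The labels do not say that equal replicate numbers share anything, so the main fit held no replicate block. No 2 libraries matched to within the counting noise of single reads (chi-square per degree of freedom at least 3.60). Double counting of read pairs would raise this value, and its part in it was not tested. Planned views of WRKY domains and promoters were not run, as no sequences were at hand.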

Additional observations from a re-analysis of the deposited data

How the results depend on the processing

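Of 616 member results under alternatives, 595 kept their direction and side of the threshold or, if uncalled in both fits, stayed uncalled, 9 lost a call, 12 gained one and none of the called ones reversed. Leaving out 1 library gave 11 to 13 members higher, 3 to 5 lower, 4037 to 4159 genes higher, 4201 to 4356 lower, and a member median of 0.11 to 0.24. That median was 0.0794 with no low-count filter, 0.17 with limma voom, 0.16 on log2(TPM + 1) and 0.0860 on it with no filter on low values, the first and last of which also cover the least expressed members. With that last setting 3007 genes were lower, other WRKY loci had 3 higher, and the kinase list 1 higher and 0 lower; that list also had 0 lower on log2(TPM + 1) and log2(TPM + 0.1). Without single libraries the kinase list had 0 to 1 lower, pattern perception 0 to 2 lower, the salicylate list 1 to 2 higher and other WRKY loci 6 to 9 higher and 5 to 7 lower. The salicylate list had 2 higher with median-of-ratios or upper-quartile scaling, a mean count of at least 10, halved counts and the replicate block. The gene added in each of these was ICS1, with edgeR adjusted p from 0.0411 to 0.0482, beside 0.0526 in the main fit.

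With the replicate block 12 members were higher and 5 lower, and 4556 and 4773 of all genes. Correlations of deviations between same-numbered libraries were 0.0106, -0.0235 and 0.00506, and 1 of 6 libraries correlated best with its own number.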

Other observations

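Of the 34 tested loci numbered next to the 17 members that passed, 6 changed in the same direction as the member, 4 in the opposite one and 24 did not pass; the 10 called are 29.4%, beside 37.6% of all tested genes. WRKY62 and WRKY76 count as each other's neighbour in 2 of the 6. The locus beyond WRKY62, LOC_Os09g25090, had a log2 fold change of 0.03 ± 0.09 and the one before WRKY76, LOC_Os09g25050, had 0.17 ± 0.24. On chromosome 11 WRKY104 and WRKY50 fell by similar sizes (-1.32 ± 0.14 and -1.27 ± 0.14 on the log2 scale), while WRKY40 (LOC_Os11g02530), numbered between them, had 53, 27 and 18 counts in WT against 28, 27 and 14 in osino80 and did not pass (-0.38 ± 0.44), and LOC_Os11g02510 had 0.06 ± 0.19. On chromosome 1 the locus before WRKY21, WRKY108 (LOC_Os01g60600), had 17, 11 and 15 counts in WT against 18, 41 and 28 in osino80; its fitted log2 change was 1.10 ± 0.49 beside 1.10 ± 0.12 for WRKY21, and did not pass (edgeR adjusted p = 0.0617, across alternatives 0.0437 to 0.360); it passed without osino80 replicate 1. The locus after WRKY21, LOC_Os01g60650, rose by 0.32 ± 0.05. The neighbouring loci were looked at after the members' values were known.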
